A study of Arabidopsis thaliana with 41 samples.

Results

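The 57 nuclear genes described here had low transcript levels in *glk* leaves and levels near WT in leaves of 2 mutants of the NuA4 complex, *Atepl1-2* and *Ateaf1-1*. They were picked from 13545 genes with a WT mean of at least 5 CPM (the reads of a gene, scaled so that the nuclear genes of every library have the same total). A member had log2((*glk* mean + 1)/(WT mean + 1)) of -1.5 or lower, the same ratio between -0.5 and 0.5 in both NuA4 mutants, and all 3 *glk* libraries below WT replicate 4. In total, 479 genes met the *glk* conditions, so the 57 members are those of them that stayed near WT in both NuA4 mutants. Of the other 422 genes, 201 were more than 0.5 lower than WT on the same scale in both NuA4 mutants, 97 were more than 0.5 higher in both, and 124 showed other combinations. These ratios chose the members and are given below as a description, with no test.

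All plants were *Arabidopsis thaliana* in the Col-0 background, and leaf RNA of several pooled plants was sequenced per replicate. The *glk* line is the transposon-insertion double mutant glk1-1 glk2-1, which lacks both Golden2-Like (GLK) factors. *Atepl1-2* carries Cas9-induced frameshift deletions in AtEPL1A and AtEPL1B, and *Ateaf1-1* carries a Cas9-induced deletion that fuses the tandem genes AtEAF1A and AtEAF1B out of frame. Each mutant is thus represented by 1 line. No treatment was applied, and the labels give the same long-day growth, stage and hour of harvest for all groups. The sample titles come in 2 styles, called label sets here. WT replicates 5, 7 and 8 form the first set together with *Atepl1-2* libraries numbered 1, 3 and 4. All of *glk* and *Ateaf1-1* (replicates 1 to 3 each) is in the second set, with WT replicate 4 and another 3 *Atepl1-2* libraries that carry the same numbers as those of the first. The rule used all 4 WT libraries and the mutants of the second set. What separates the label sets is not given in the sources used here.

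GLK1 and GLK2 are transcription factors that switch on nuclear genes for chlorophyll synthesis and light harvesting, and plants without both are pale. NuA4 is a histone acetyltransferase complex that acetylates histone H4 and the variant H2A.Z at active genes, with EPL1 and EAF1 as scaffold subunits. Many genes that are rapidly induced by wounding, touch, pathogens or calcium signals have few or no introns, and their transcripts turn over fast. TIR-domain proteins are plant immune proteins that, in most known cases, detect pathogen effectors and signal through EDS1.

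By annotation, the 57 members were not photosynthesis genes for the most part. Roles were assigned after the members were known. There were 7 TIR-domain proteins, 10 transcription regulators, 9 protein kinases and calcium or lipid signalling proteins, 10 proteins of membrane, wall or cell surface, 8 other enzymes, 3 proteins with domains linked to ubiquitin, and 2 chloroplast proteins. The remaining 8 genes had other roles or none assigned. None of the 20 light-harvesting antenna genes and none of the 27 chlorophyll synthesis genes on fixed lists was a member. GLK1 (annotated as GPRI1), which is itself mutated in *glk*, was also a member.

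The promoters of 5 TIR-domain members are shown because they share a short motif. Each is the 250 bases upstream of the gene start, read 5′ to 3′ on the gene's strand from the RefSeq TAIR10.1 genome. Capitals mark CGCGTT, the core of the rapid stress response element bound by CAMTA factors, and TTGACT, a W-box core bound by WRKY factors, on either strand (AACGCG and AGTCAA on the other). AT1G66090 lies at chr1:24601783-24602032 on the plus strand, AT1G63860 at chr1:23706059-23706308 on the minus strand, AT5G58120 at chr5:23517006-23517255 on the plus strand, AT1G63750 at chr1:23650590-23650839 on the plus strand and AT1G56540 at chr1:21181335-21181584 on the plus strand.
AT1G66090: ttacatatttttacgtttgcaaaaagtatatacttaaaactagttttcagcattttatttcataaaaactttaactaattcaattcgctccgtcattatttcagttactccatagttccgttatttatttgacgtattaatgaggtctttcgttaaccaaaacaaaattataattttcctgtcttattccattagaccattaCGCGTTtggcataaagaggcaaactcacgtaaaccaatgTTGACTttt
AT1G63860: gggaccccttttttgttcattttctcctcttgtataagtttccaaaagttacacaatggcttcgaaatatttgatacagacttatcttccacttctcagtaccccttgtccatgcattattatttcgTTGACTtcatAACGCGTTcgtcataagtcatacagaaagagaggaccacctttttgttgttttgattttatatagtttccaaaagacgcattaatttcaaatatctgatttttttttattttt
AT5G58120: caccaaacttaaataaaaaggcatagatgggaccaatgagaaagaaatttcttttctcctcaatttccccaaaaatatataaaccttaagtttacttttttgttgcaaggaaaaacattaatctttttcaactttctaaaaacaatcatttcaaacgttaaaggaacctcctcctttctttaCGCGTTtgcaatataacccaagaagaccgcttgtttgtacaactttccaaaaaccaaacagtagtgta
AT1G63750: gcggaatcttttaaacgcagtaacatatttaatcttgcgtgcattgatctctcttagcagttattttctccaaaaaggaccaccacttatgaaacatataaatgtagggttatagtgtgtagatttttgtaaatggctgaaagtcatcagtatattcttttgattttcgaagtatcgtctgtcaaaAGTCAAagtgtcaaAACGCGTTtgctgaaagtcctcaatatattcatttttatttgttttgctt
AT1G56540: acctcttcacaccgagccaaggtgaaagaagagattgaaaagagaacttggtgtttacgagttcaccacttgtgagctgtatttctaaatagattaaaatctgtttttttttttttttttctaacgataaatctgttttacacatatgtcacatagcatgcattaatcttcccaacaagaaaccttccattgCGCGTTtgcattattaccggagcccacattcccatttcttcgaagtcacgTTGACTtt

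CGCGTT stands once in AT1G66090, AT5G58120 and AT1G56540, and AT1G63860 and AT1G63750 hold AACGCGTT, in which the motif overlaps itself on both strands. CGCGTT was present on either strand in the same window of 7 of the 57 members (12.3%), of 2.95% of the 13545 genes with at least 5 CPM and of 2.58% of all 37897 promoters. The other carriers among the members were AT5G64870 and AT4G34150. TTGACT was present in 16 members (28.1%) and in 18.5% of the 13545 genes, and the related TTGACC in 4 members (7.02%) and in 12.02% of those genes. These 3 motifs were chosen after the members had been seen. Of the motifs listed earlier, CCAATC, a GLK-linked motif, was in 5 members (8.77%) and in 10.8% of the 13545 genes. AGATTCT was in 1 member (1.75%) and in 5.94% of those genes, CACGTG (the G-box) in 2 (3.51%) and 7.61%, and AAAATATCT (the evening element) in 0 and 2.61%. A match is a run of letters and says nothing about binding.

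Transcript levels of the mutated genes come first. CPM of GLK1 were 160, 133, 94.0 and 105 in WT replicates 4, 5, 7 and 8, and 23.8, 24.6 and 26.7 in *glk* replicates 1 to 3. All 3 *glk* libraries were thus far below every WT library, although transcripts were still counted. GLK2 was at 77.8, 91.3, 64.8 and 68.4 CPM in the same WT libraries and at 94.3, 110 and 92.2 CPM in *glk*, so its transcript level did not mark the mutant. A transposon allele can keep its transcript, and the counts cannot show whether the insertion lies in it. GLK1 was between 127 and 181 CPM in the 6 NuA4 libraries of the second set.

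The libraries held 22330141 to 39666320 estimated reads, of which 8338650 to 20307015 were nuclear, since 40.2% to 65.6% came from the chloroplast genome. On the CPM scale over all 13545 genes the median log2 *glk* to WT ratio was 0.51 rather than 0, and it was 0.24 in *Atepl1-2* and 0.28 in *Ateaf1-1*. A member near 0 in the NuA4 mutants was thus slightly below the typical gene. WT replicate 4 stood apart from the other 3 WT libraries, with a median log2 ratio to their mean of 0.35 over the 13545 genes. Clock genes also set this library apart from the other WT libraries, and they differed among the second-set mutants as well. CCA1, a morning clock gene, was at 4.39 CPM in WT replicate 4, 39.7 to 52.4 in the other WT libraries and 128 to 159 in *glk*. FKF1, an afternoon gene, was at 118 CPM in WT replicate 4, 57.2 to 117 in second-set *Atepl1-2*, 56.0 in *Ateaf1-1* replicate 1, 2.11 and 2.90 in *Ateaf1-1* replicates 2 and 3, 1.60 to 5.63 in *glk*, and 2.06 to 3.79 in first-set WT. The part of these differences in the members' levels was not tested.

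Markers of other cell types and tissues differed among groups. The 4 root markers summed to 0.31 to 10.9 CPM in WT, 49.2 to 93.6 in *glk*, 132 to 159.7 in second-set *Atepl1-2*, 88.8 to 197 in *Ateaf1-1* and 9.28 to 36.7 in first-set *Atepl1-2*. Nearly all of this was PYK10, a beta-glucosidase, while RHD6 was at 0 in all libraries and WOX5 and CASP1 were near 0. The 3 epidermis markers summed to 411 to 460 CPM in WT, 633 to 643 in *glk*, 299 to 369 in second-set *Atepl1-2*, 384 to 462 in *Ateaf1-1* and 161 to 234 in first-set *Atepl1-2*. The 4 vasculature markers summed to 293 to 385 CPM in WT, 249.8 to 281 in *glk*, 143 to 156 in second-set *Atepl1-2*, 159.5 to 179 in *Ateaf1-1* and at least 134.6 in first-set *Atepl1-2*, whose libraries were all below those of WT. WT and *glk* thus did not overlap in any of these 3 lists. The summed CPM of 3 shoot meristem markers was 0 in all WT libraries, 13.2 to 17.2 in *glk*, 5.66 to 9.15 in second-set *Atepl1-2* and 4.59 to 5.71 in *Ateaf1-1*. Nearly all of it was STM, while CLV3 was at 0 in WT and near 0 elsewhere. The 5 flower markers summed to 0.55 to 4.08 CPM in WT, 31.2 to 56.5 in *glk* and 2.74 to 9.965 in the second-set NuA4 libraries, and the 2 trichome markers to 2.68 to 3.65, 7.41 to 14.2 and 10.35 to 16.9 in the same order. The 2 guard cell markers were at 12.3 to 16.9 CPM in WT and 17.3 to 19.4 in *glk*, and the 2 seed markers at 4.79 CPM or less in every library. The 4 leaf mesophyll markers summed to 13840 to 30640 CPM in WT and 15440 to 16450 in *glk*, so the samples were leaf by their defining genes. Fewer cells of a type and less RNA per cell cannot be told apart in bulk tissue, and the part of the marker differences in the results was not tested.

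The 3 lowest ratios belonged to AT5G05600, FRB1 and TCH3. AT5G05600, a 2-oxoglutarate oxygenase of the kind that oxidises jasmonate, was at 13.2, 85.0, 145 and 161 CPM in WT replicates 4, 5, 7 and 8 and at 4.29, 4.59 and 5.34 CPM in *glk*. Levels in the NuA4 mutants were 78.3 to 126 CPM in second-set *Atepl1-2* and 63.7 to 115 CPM in *Ateaf1-1*. The *glk* libraries were below all others, and WT replicate 4 was the only other library below 63.7 CPM. The log2 ratio of *glk* to the WT mean was -4.15 here, and that of *glk* to WT replicate 4 was -1.30.

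FRB1, an O-fucosyltransferase family protein needed for cell adhesion, was at 15.5, 46.4, 92.7 and 51.1 CPM in WT replicates 4, 5, 7 and 8, and at 1.55, 2.33 and 3.22 CPM in *glk*. TCH3, a touch-induced calmodulin-like protein, was at 350, 794, 1236 and 900 CPM in the same WT libraries, and at 63.0, 75.6 and 31.1 CPM in *glk*. It had the highest WT level per transcript length of all members (110 TPM, reads corrected for transcript length and scaled to a fixed total, against a median of 4.71 TPM over the members). In both genes the *glk* libraries were separate from every WT and NuA4 library. Second-set *Atepl1-2* held 489 to 688 CPM of TCH3 and *Ateaf1-1* held 497 to 978 CPM, all above WT replicate 4 and mostly below the other WT libraries.

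**Figure D1:**
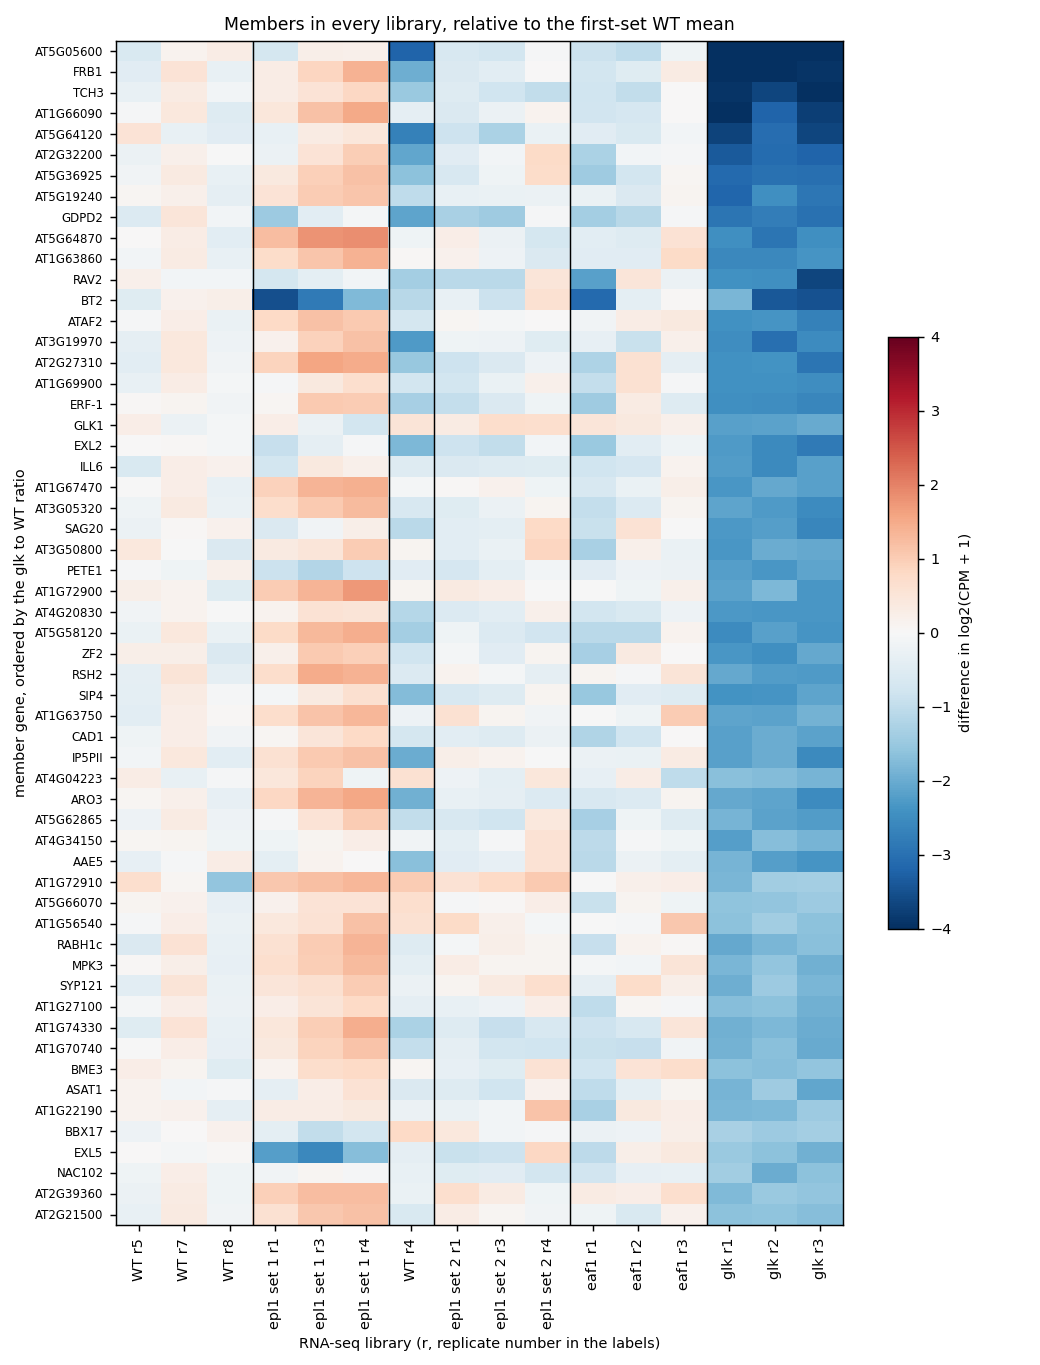
Difference in log2(CPM + 1) of each of the 57 members (rows, ordered by the *glk* to WT ratio) from the mean of the 3 first-set WT libraries, for all 16 RNA-seq libraries (columns; epl1, *Atepl1-2*; eaf1, *Ateaf1-1*; r, replicate number). The 3 *glk* columns are blue in every row by the rule. The column of WT replicate 4 is blue in many rows, and the first-set *Atepl1-2* columns are red in many.

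Over the 57 members the fold of the WT mean over the *glk* mean ran from 3.04 to 30.6, with a median of 4.57. The highest *glk* library was below the lowest of the 4 WT libraries in 56 members, against 8.42% of the 13545 genes. The exception was AT1G72910, with 30.0 CPM in WT replicate 8 and 25.5 to 35.0 CPM in *glk*. It was also below the lowest of the 6 second-set NuA4 libraries in 56 members, against 13.1% of those genes. There the exception was BT2, a BTB and TAZ domain regulator, with 49.3 CPM in *Ateaf1-1* replicate 1 and 37.8 to 121 CPM in *glk*. Since the rule used these libraries, nothing is read from these counts.

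TIR-domain genes form the largest annotated family among the members. AT1G66090, a TIR-NBS protein, was at 58.7, 73.6, 102 and 52.8 CPM in WT replicates 4, 5, 7 and 8 and at 3.80, 7.33 and 4.61 CPM in *glk*, a log2 ratio of -3.54. AT1G63860, a TIR-NBS-LRR protein, was at 97.8, 87.4, 119 and 75.8 CPM in WT and at 14.8, 14.8 and 17.5 CPM in *glk*. Here WT replicate 4 lay inside the range of the other WT libraries for AT1G66090 and AT1G63860 alike, and their log2 ratios to WT replicate 4 alone were -3.26 and -2.56, beside -3.54 and -2.52 to the mean of all WT libraries. The 5 others were AT1G72900, AT5G58120, AT1G63750, AT1G72910 and AT1G56540, with log2 ratios of -2.11, -2.10, -1.997, -1.84 and -1.73. Their median log2 ratio to WT replicate 4 alone was -2.202 over the 7 genes, and WT replicate 4 was below all first-set WT libraries in only 1 of them.

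AT1G72900 and AT1G72910 are adjacent on chromosome 1 (27432178 to 27433782 and 27435306 to 27437192, both on the plus strand, TAIR10.1) and were the only neighbouring members. They encode proteins annotated as TIR domain only, and further TIR genes follow in the same tandem cluster. Salmon shares reads between similar transcripts, so the split of counts among TIR paralogs is uncertain. Among the 7 TIR-domain members AT1G72910 had the widest range among WT libraries, at 189, 149, 98.3 and 30.0 CPM in replicates 4, 5, 7 and 8, whereas AT1G72900 was at 70.6, 76.9, 71.4 and 45.7 CPM.

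The rest of the TIR family was tested in the fit across all genes (edgeR's quasi-likelihood test with Benjamini-Hochberg adjustment, false discovery rate under 0.01 and at least 1.5-fold). In *glk* against WT, 7.45% of the 20733 genes tested were called lower and 4.18% higher. All 57 members were called lower, which the rule fixed, with a median log2 fold change of -2.79 against 0.02 over all genes. Of the 93 tested TIR-domain genes that are not members, 24 were called lower and 0 higher. Over all 100 tested TIR-domain genes the median log2 fold change was -0.80. Named among the 24, AT5G41750 was at 267 CPM in WT and 19.9 CPM in *glk* (log2 fold change -4.29), and WRR4, a resistance gene to white rust, at 206 and 41.0 CPM (-2.92). Both were outside the rule because their second-set NuA4 levels lay above the window, at 421 and 409 CPM for AT5G41750 and 308 and 318 CPM for WRR4 in *Atepl1-2* and *Ateaf1-1*.

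**Figure D2:**
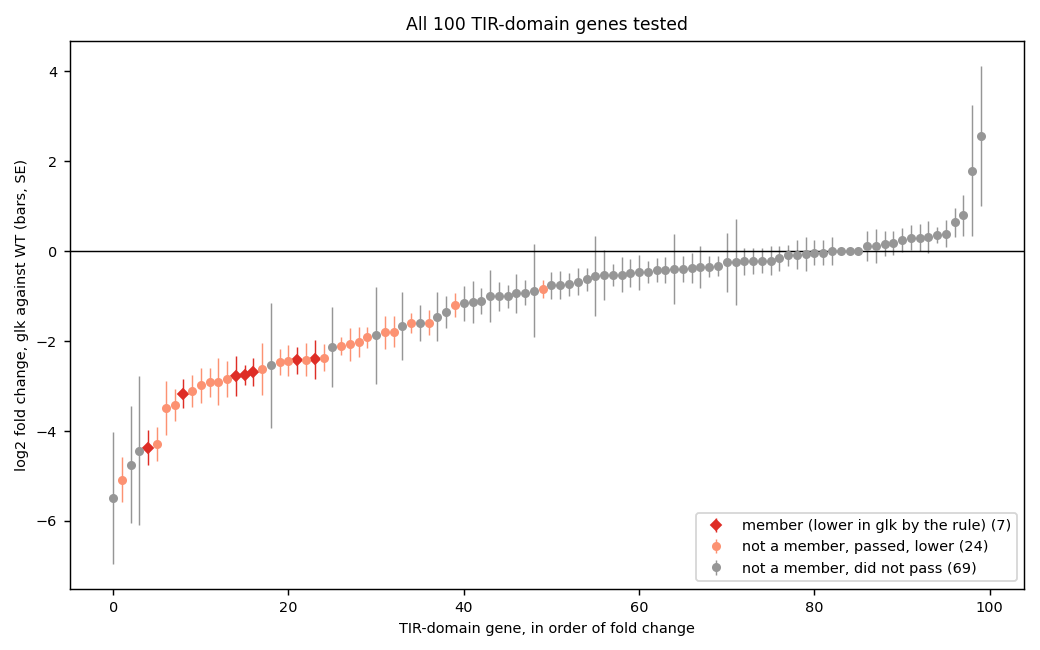
Log2 fold change of *glk* against WT (vertical axis, bars are standard errors) for the 100 tested TIR-domain genes in order of that value (horizontal axis). The 7 members (diamonds) lie among 24 other genes called lower; 69 were not called, and 3 genes without a bar had no counts in either group.

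Among the tested TIR-domain genes, 9 held CGCGTT in the promoter window and 91 did not. Of the 9, 5 were members, low in *glk* by the rule, and 7 were called lower, with a median log2 fold change of -2.69. Among the carriers that are not members, AT5G41740 and AT5G41550 were called lower (log2 fold changes of -2.98 and -1.795). AT5G46510 and AT4G36140 were not called (-1.11 and 0.30). Of the 91, 2 were members and 24 were called lower, with a median of -0.68. Among all 581 tested genes with the motif, 7 were members, 123 (21.2%) were called lower and 15 higher, beside 7.45% and 4.18% of all genes. The motif was chosen after the data were seen, so these are descriptions.

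Transcription regulators were the other large group, with log2 ratios of *glk* to WT from -2.51 to -1.58. RAV2, an AP2 and B3 domain repressor of flowering, was at 133, 393, 314 and 314 CPM in WT replicates 4, 5, 7 and 8 and at 62.6, 60.7 and 25.7 CPM in *glk*. BT2, which takes part in nitrogen, sugar and light responses, was at 200, 309, 487 and 509 CPM in the same WT libraries and at 121, 40.2 and 37.9 CPM in *glk*. In *Ateaf1-1*, these genes were far from uniform, with 75.0, 480 and 287 CPM of RAV2 and 49.3, 335 and 451 CPM of BT2 in replicates 1, 2 and 3. Their nearness to WT in *Ateaf1-1* is therefore a property of the mean and not of each library.

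ATAF2, a wound-induced NAC factor, was steadier, at 89.5, 143, 176 and 123 CPM in WT replicates 4, 5, 7 and 8, 140 to 155 CPM in second-set *Atepl1-2*, 134 to 194 CPM in *Ateaf1-1* and 21.7 to 28.0 CPM in *glk*. ERF-1, which binds the GCC box of ethylene-responsive genes, was at 7.60 CPM in WT replicate 4, 18.5 to 21.97 CPM in the other WT libraries and 2.56 to 2.96 CPM in *glk*. ZF2, BME3 and BBX17 were the members annotated as zinc fingers, with log2 ratios of -2.10, -1.65 and -1.62. NAC102, AT1G22190 (an AP2 domain factor) and BBX17 lay close to the limit, at -1.58, -1.63 and -1.62. In the families without their members, 8 of 59 tested NAC genes were called lower in *glk* and 2 higher. Of 62 AP2/ERF genes 15 were lower and 5 higher, and of 391 zinc finger genes 21 were lower and 11 higher. Over all genes tested, 7.45% were called lower and 4.18% higher.

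**Figure D3:**
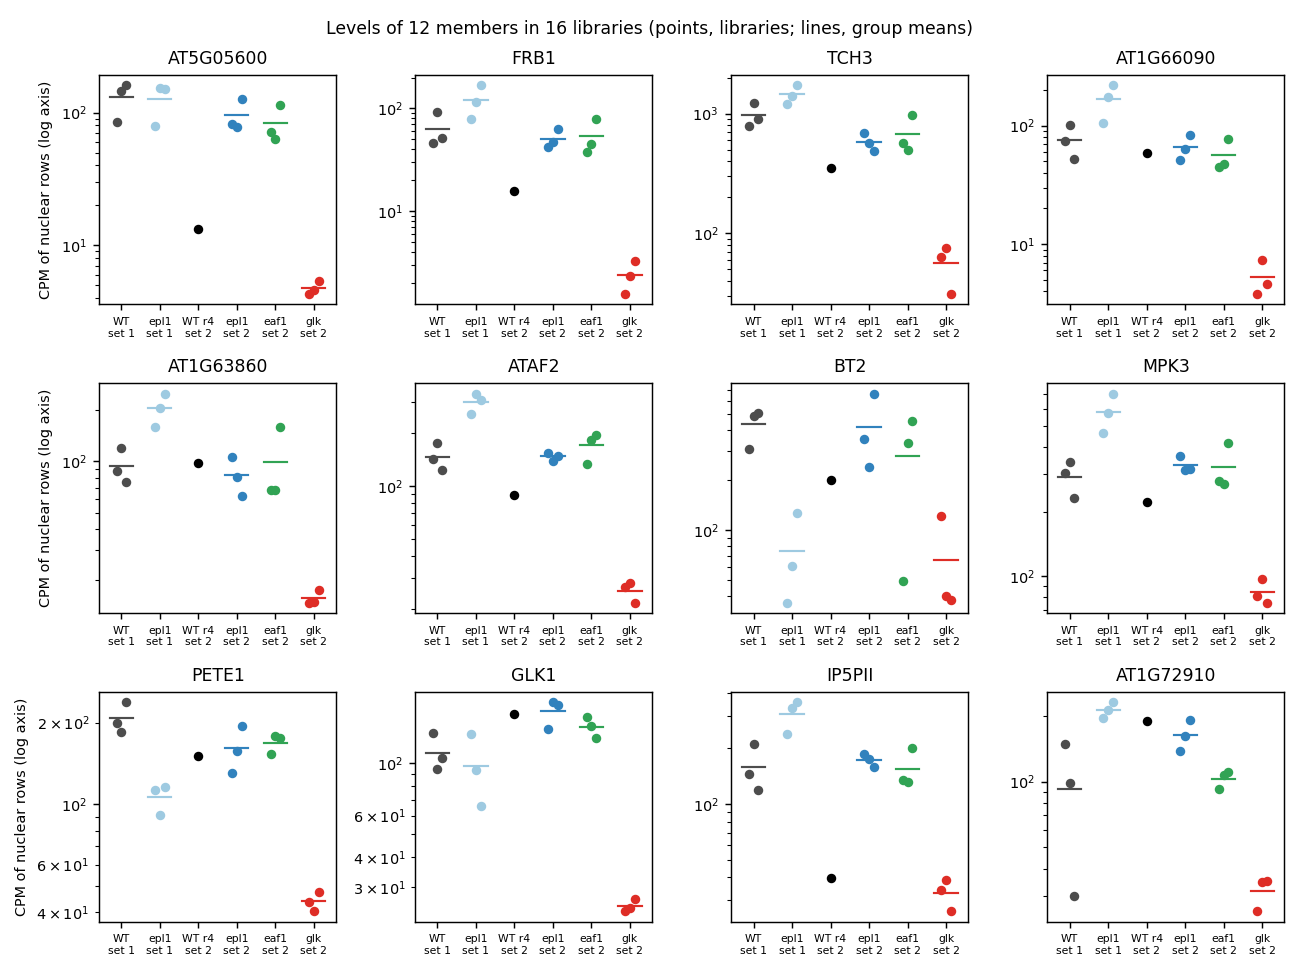
CPM (log axis) of 12 members in each of the 16 libraries (points) by group, with group means (lines; WT replicate 4 is a single library). WT replicate 4 lies inside the range of the other WT libraries for AT1G66090 and AT1G63860 and far below it for AT5G05600 and IP5PII, and *Ateaf1-1* replicate 1 is low for BT2.

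Kinases and calcium or lipid signalling proteins made up 9 members. MPK3, a mitogen-activated protein kinase of immune signalling, was at 222, 301, 341 and 231 CPM in WT replicates 4, 5, 7 and 8 and at 81.3, 97.8 and 75.6 CPM in *glk*. Its NuA4 libraries held 312 to 361 CPM in second-set *Atepl1-2* and 269 to 419 CPM in *Ateaf1-1*, all above WT replicate 4. The *glk* libraries were below all others by a wide margin. SIP4, a calcineurin B-like interacting kinase also known as CIPK11, had a log2 ratio of -2.005. The protein kinases AT1G67470, AT1G74330, AT1G70740 and AT2G39360 had log2 ratios of -2.16, -1.67, -1.67 and -1.55. Apart from 6 members, 679 protein kinase genes were tested, of which 111 were called lower in *glk* and 23 higher. The shares over all genes tested were 7.45% and 4.18%.

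IP5PII, an inositol polyphosphate 5-phosphatase, shows how far WT replicate 4 can weigh. It was at 39.6 CPM in that library, 145, 210 and 119 CPM in WT replicates 5, 7 and 8, and 34.2, 38.9 and 26.3 CPM in *glk*. The *glk* mean was 83.7% of WT replicate 4 but far below every other WT library. AT4G34150, a C2 domain protein, was by contrast at 176 to 214 CPM in all 4 WT libraries and 42.4 to 61.2 CPM in *glk*. Apart from 2 members, 72 genes for EF-hand or C2-type calcium-binding proteins were tested. Of these 72, 17 were called lower in *glk* and 0 higher, beside 7.45% and 4.18% of all genes.

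Among proteins of membrane and wall, SYP121, a syntaxin of penetration resistance, was at 52.3 to 100.5 CPM in WT and 17.38 to 25.0 CPM in *glk*. AT5G19240, a GPI-anchored glycoprotein, was at 102 CPM in WT replicate 4, 164 to 243 CPM in the other WT libraries and 22.4 to 36.9 CPM in *glk*. AT5G64870, a flotillin-type protein, was at 12.1 to 20.5 CPM in WT and 1.29 to 2.196 CPM in *glk*. None of the 3 overlapped between WT and *glk*. CAD1, a perforin-domain protein that restrains immune cell death, had a log2 ratio of -1.96. EXL2 and EXL5, of the EXORDIUM-like family, had ratios of -2.24 and -1.59. AT2G32200, a small cysteine-rich transmembrane protein, had the largest fold, 30.6, at 1.80 to 12.7 CPM in WT and 0.14 to 0.40 CPM in *glk*. AT5G36925, of unknown function, was as low in *glk*, at 0.21 to 0.32 CPM, with 2.35 to 12.5 CPM in WT.

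In 7 of the 8 enzymes outside these groups WT replicate 4 was below all other WT libraries. AT5G64120, a peroxidase, was at 5.40, 59.2, 32.7 and 29.4 CPM in WT replicates 4, 5, 7 and 8 and at 2.18, 4.02 and 2.27 CPM in *glk*. GDPD2, a glycerophosphodiester phosphodiesterase, was at 5.09 CPM in WT replicate 4, 16.9 to 35.3 CPM in the other WT libraries and 2.34 to 2.82 CPM in *glk*. AT3G19970, an alpha/beta hydrolase, was at 7.44 CPM, 30.9 to 54.0 CPM and 4.11 to 6.26 CPM in the same order. For these 8 enzymes the median log2 ratio of *glk* to WT replicate 4 was -0.98, against -2.26 to the mean of all WT libraries. ILL6, which cleaves amino acid conjugates of auxin and jasmonate, was the enzyme in which WT replicate 4 was not below the others, at 34.2 CPM against 32.3 to 60.8 CPM, and 7.73 to 10.4 CPM in *glk*.

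PETE1 and RSH2 were the 2 members with a well-known chloroplast role. PETE1, the minor plastocyanin isoform, was at 151, 199, 184 and 238 CPM in WT replicates 4, 5, 7 and 8 and at 43.8, 40.4 and 47.6 CPM in *glk*. In the second-set NuA4 libraries it was at 131 to 194 CPM, and in first-set *Atepl1-2* at 91.4 to 116 CPM. RSH2, which makes the alarmone ppGpp in chloroplasts, was at 128, 145, 271 and 146 CPM in WT and at 45.0, 38.6 and 38.4 CPM in *glk*. Neither gene overlapped between WT and *glk*. Of 26 members with a compartment in the RefSeq description, 3 (11.5%) named the chloroplast, against 27.4% of the genes with at least 5 CPM.

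Of the remaining members named by the rule, AT2G27310, an F-box protein, was at 2.98 CPM in WT replicate 4, 7.52 to 14.4 CPM in the other WT libraries and 0.51 to 1.21 CPM in *glk*. AT1G69900 and AT1G27100, annotated as actin cross-linking proteins, had log2 ratios of -2.29 and -1.67. AT3G50800 and AT5G62865, both uncharacterised, had ratios of -2.13 and -1.87. AT1G27100 was the more abundant, at 229 to 353 CPM in WT and 76.9 to 92.7 CPM in *glk*.

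Just inside the limit of -1.5 were NAC102, AT2G39360 and AT2G21500 (a RING/U-box protein), at -1.58, -1.55 and -1.53. Just outside were AT4G39270, CYP72C1 and AOC2, at -1.49, -1.46 and -1.44. AOC2, an allene oxide cyclase of jasmonate synthesis, was at 126 CPM in WT (mean, SD 28.8, n = 4), 45.9 CPM in *glk* (SD 3.49, n = 3), 119 CPM in second-set *Atepl1-2* and 161 CPM in *Ateaf1-1*. The limit thus cuts through a continuous range of values.

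WT replicate 4 was below all 3 first-set WT libraries in 38 members (66.7%), against 20.5% of the 13545 genes and 57.6% of the 422 other genes low in *glk*. It was within their range in 13 members and above it in 6. The median log2 ratio of WT replicate 4 to first-set WT was -0.63 over the members and 0.35 over the 13545 genes. Against WT replicate 4 alone, the only WT library of the second set, the members' median in *glk* was -1.41, and 26 of them were at -1.5 or lower. The *glk* mean was below 50% of WT replicate 4 in 48 members and above 50% in 9. The 2 NuA4 mutants, also of the second set, had medians of 0.57 and 0.50 over that library. Both were more than 0.5 above it in 26 members, within 0.5 of it in 19 and more than 0.5 below it in 3. For the first group, levels near WT hold against the mean of the 4 WT libraries and not against the WT library of their own label set.

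**Figure D4:**
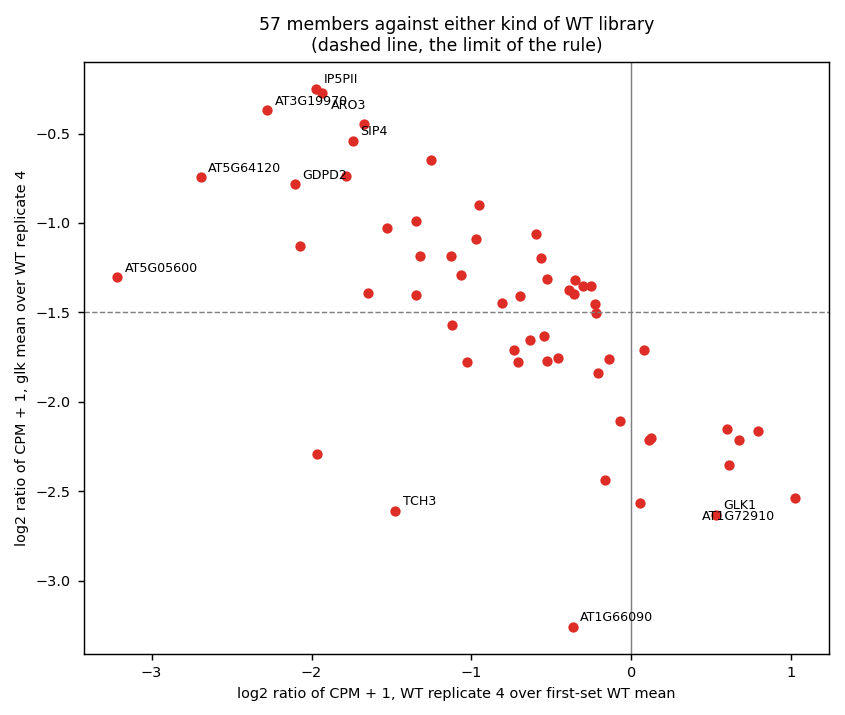
Log2 ratio (CPM + 1) of WT replicate 4 to the first-set WT mean (horizontal axis) and of the *glk* mean to WT replicate 4 (vertical axis) for each member (points). The axes share WT replicate 4, so a downward slope is built in. IP5PII, ARO3 and AT3G19970 sit at the upper left, where *glk* is near WT replicate 4, and AT1G72910, GLK1 and AT1G66090 lie far below the dashed limit of -1.5.

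Membership moved with the reference and the scale. With first-set WT as the only reference 56 genes met the rule, 36 of them members, and with WT replicate 4 alone 63 genes met it, 13 of them members. Under TMM scaling (edgeR's trimmed mean of M-values), which puts the median gene of *glk* near WT, 104 genes met the rule and 24 were members. With CPM over all rows, chloroplast genes included, 60 genes met it and 19 were members. The list is therefore 1 cut through the genes low in *glk* and not a fixed set.

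Levels within the mutant groups also followed individual libraries. *Ateaf1-1* replicate 1 was the lowest of its 3 libraries in 39 members, against 20.4% of the 13545 genes, and replicate 3 was the highest in 38, against 30.9%. In second-set *Atepl1-2*, replicate 4 was the highest in 35 members (32.0% of the 13545 genes). In first-set *Atepl1-2*, replicate 1 was the lowest in 51 (26.2%) and replicate 4 the highest in 43 (25.2%). In *glk*, replicates 1, 2 and 3 were the lowest in 22, 10 and 25 members, against 28.55%, 37.5% and 33.9% of the 13545 genes. Replicate 2 of *glk* was the highest in 27 members (31.55%).

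The *glk* libraries were also set against *Ateaf1-1*, since both belong to the second label set. In that comparison 12.1% of the 20733 genes were called lower in *glk*. Of the 57 members, 54 were called lower and 3 (BT2, SIP4 and AAE5, an acyl activating enzyme) were not, with a median log2 fold change of -2.36. The rule used these libraries too, so the counts describe the members and support nothing.

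The first-set *Atepl1-2* libraries were not used by the rule and allow a test, although the 3 WT libraries in it were. Of the 57 members, 11 rose, 4 fell and 42 did not pass, with a median log2 fold change of 0.51 against 0.05 over all genes. This makes 19.3% higher and 7.02% lower, beside 23.3% and 21.8% of the 18840 genes tested, so the share called higher was near the background. Among the 42, 31 had a fold change above 0 and 11 below. By the log2 CPM ratio to first-set WT, 45 of all 57 members were above 0 and 12 below. Over the 13545 genes, 7694 were above 0 and 5850 below. On CPM, the lowest first-set *Atepl1-2* library was above the highest WT library in 24 members, against 41.2% of the 13545 genes.

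The members that rose by most in first-set *Atepl1-2* were AT5G64870, AT2G27310 and AT1G72900. AT5G64870 went from 16.9, 20.5 and 12.1 CPM in WT replicates 5, 7 and 8 to 39.9, 59.4 and 62.3 CPM, a log2 fold change of 1.48 ± 0.23 (SE, edgeR, adjusted p = 0.00044). In AT2G27310 the log2 fold change was 1.21 ± 0.26 (adjusted p = 0.0027), and in AT1G72900 it was 1.196 ± 0.25 (adjusted p = 0.0025). No library of WT and *Atepl1-2* overlapped in these 3 genes. AT5G64870 was at 9.65 to 20.04 CPM in second-set *Atepl1-2*, so the 2 sets of the same mutant differed there. ARO3, an armadillo repeat protein, AT1G67470, AT5G58120, AT2G39360, AT1G63860, AT1G63750, AT3G05320 (an O-fucosyltransferase family protein) and ATAF2 also rose, with log2 fold changes of 1.08, 1.05, 1.00, 0.94, 0.90, 0.88, 0.86 and 0.81.

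The 4 members that fell were BT2, EXL5, PETE1 and BBX17. BT2 went from 309, 487 and 509 CPM to 36.8, 60.7 and 127 CPM, a log2 fold change of -2.73 ± 0.42 (edgeR, adjusted p = 0.00038). EXL5 went from 52.4 to 57.3 CPM in WT to 8.40 to 16.1 CPM (-2.43 ± 0.22, adjusted p = 1.1e-05). For PETE1 the value was -1.18 ± 0.15 (adjusted p = 0.00012) and for BBX17, a B-box factor, -0.93 ± 0.17 (adjusted p = 0.0011). None of the 4 overlapped between first-set WT and *Atepl1-2*, and they were the only members (7.02%) with *Atepl1-2* wholly below WT, against 29.9% of the 13545 genes. In the second set these genes were at 239 to 664, 29.6 to 98.1, 131 to 194 and 20.2 to 29.6 CPM in *Atepl1-2*, which the rule required to be near WT.

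**Figure D5:**
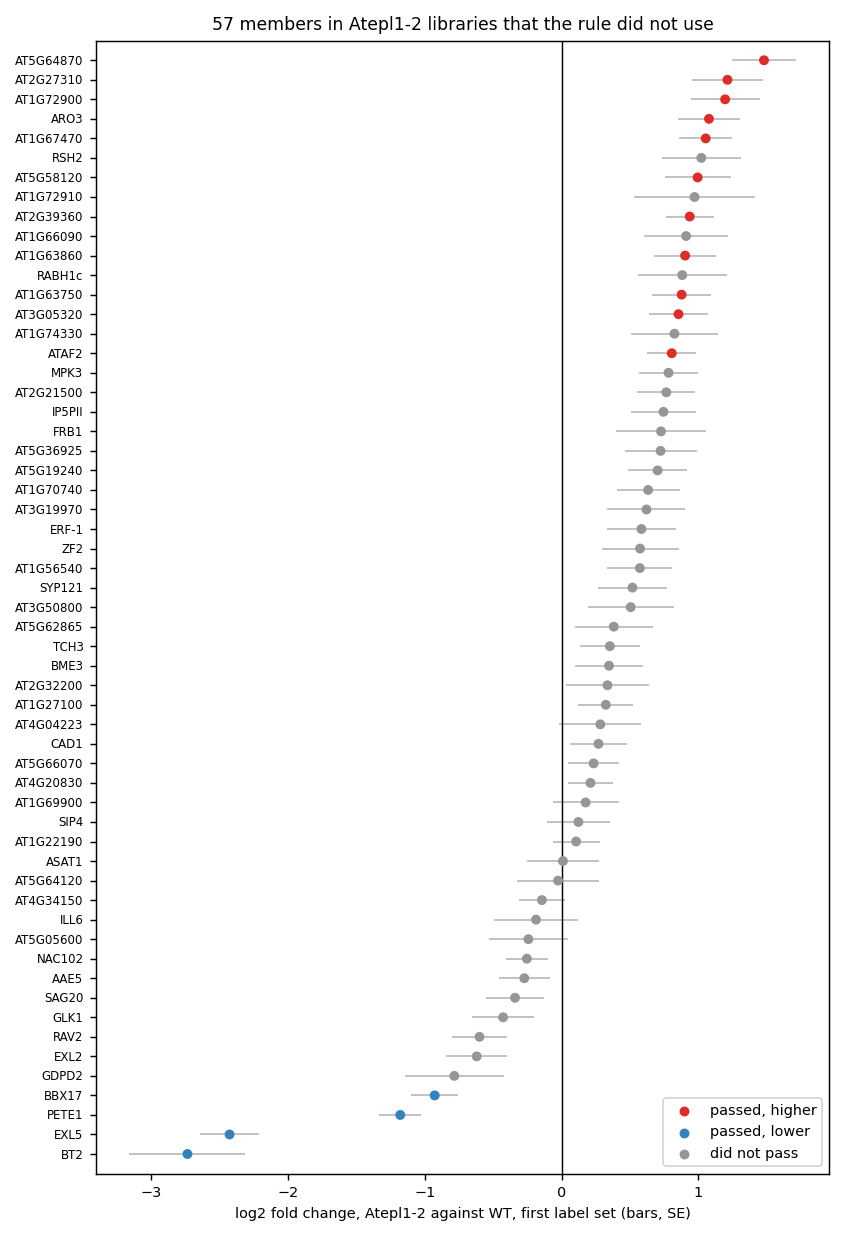
Log2 fold change of first-set *Atepl1-2* against WT (horizontal axis, bars are standard errors, n = 3 libraries a group) for the 57 members in order of that value. Red points mark the 11 members that passed as higher, blue points at the bottom the 4 that passed as lower, and grey points the 42 that did not pass.

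The number of members that rose was sensitive to single libraries. Only 5 passed when WT replicate 5, WT replicate 8 or *Atepl1-2* replicate 4 was left out, and only 4 when *Atepl1-2* replicate 3 was, all of them among the 11. Leaving out WT replicate 7 gave 17 and leaving out *Atepl1-2* replicate 1 gave 19, which included all 11. The 4 that fell passed in each of these fits.

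By role, 4 of the 7 TIR-domain members rose in first-set *Atepl1-2* and 0 fell, beside 23.3% of all genes called higher there and 21.8% lower, with a median log2 fold change of 0.91. The 3 not called were AT1G66090, AT1G72910 and AT1G56540 (adjusted p = 0.026, 0.081 and 0.059, edgeR). Among the 88 other TIR-domain genes tested there, 56 rose and 2 fell. None of the 8 enzymes passed in either direction. Of the 10 transcription regulators, 1 rose and 2 fell, and of the 9 kinases and signalling proteins 2 rose and 0 fell, so neither group exceeded the share called higher over all genes.

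Pathway lists around the members were counted in the same *glk* fit, beside 7.45% of all genes called lower and 4.18% higher. Of 14 salicylic acid defence genes, which lie downstream of many TIR proteins, 9 were lower in *glk* and 1 higher, while in first-set *Atepl1-2* 13 of them rose and 0 fell. CBP60G, an activator of salicylic acid synthesis, was at 103 CPM in WT and 14.3 CPM in *glk*, and PR1, the classical output gene, at 2.09 and 4.88 CPM, with no call. None of the list was a member, and PR1 was far outside the window, at 4475 CPM in second-set *Atepl1-2*. Of 11 jasmonate genes, 7 were lower in *glk* and 1 (VSP1) higher. JAZ1, a jasmonate repressor, was at 147 CPM in WT and 6.95 CPM in *glk*. JAZ1 and OPR3, an enzyme of jasmonate synthesis, were also low in the NuA4 mutants on the second-set means (53.9 and 67.7 CPM for JAZ1 in *Atepl1-2* and *Ateaf1-1*), which kept them outside the rule.

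Most genes that GLKs are known for passed as lower in *glk* and fell in first-set *Atepl1-2*. Of the 20 antenna genes, 18 were lower in *glk* and 19 fell in first-set *Atepl1-2*, and of 27 chlorophyll synthesis genes 18 were lower in *glk* and 25 fell in first-set *Atepl1-2*. The other lists gave, in *glk*, 1 lower (LUX) and 1 higher (PRR9) of 13 clock genes, 3 lower of 11 cold response genes, 1 lower and 1 higher of 9 abscisic acid genes, 2 lower of 7 sugar genes, and 5 lower and 1 higher of 18 glucosinolate genes. Of 11 iron genes 5 were lower, of 9 phosphate genes 1 was higher, of 13 flavonoid genes 2 were higher, and none of 3 heat shock genes tested was called.

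Gene structure and process terms were not used by the rule. The 56 protein-coding members had a median of 3 exons, against 6 for the 13430 coding genes with at least 5 CPM. A single exon was annotated in 17 (30.4%), against 10.3% of those genes, and at most 2 exons in 26 (46.4%), against 21.8%. More than 50% of the coding members thus had over 2 exons. Few exons were at least as frequent in the other genes low in *glk*: of their 416 coding genes 37.0% had a single exon and 57.7% at most 2, with a median of 2. The median coding length was 1114 bases in the members, 1233 in the genes with at least 5 CPM and 960 in the other genes low in *glk*. The exception to coding was AT4G04223, an RNA gene of unknown function, at 4.13 to 8.54 CPM in WT and 0.73 to 0.98 CPM in *glk*. The exact term defense response was given to 7 of the 32 members with a term (21.9%), against 1.89% of 9161 background genes. These were the 7 TIR-domain genes. Related terms not counted were defense response to fungus for AT5G64120 and regulation of systemic acquired resistance for ILL6. Of the 32, 7 carried the term biological process unknown, against 24.75% of the background genes.

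The members were spread over the genome, with 17, 8, 11, 7 and 14 on chromosomes 1 to 5. Within 1 Mb of GLK1 on chromosome 2, where DNA linked to the insertion could differ, there was 1 other member, AT2G21500, of 249 genes with at least 5 CPM. Within 1 Mb of GLK2 on chromosome 5 there were 0 of 232.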

How the data were processed

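RNA-seq of rosette leaves was available for 16 libraries. The authors trimmed reads with BBDuk2 and quantified Araport11 genes with Salmon (0.13.1 in the submitters' processing notes), correcting for sequence and GC bias; the deposited values used here were expected counts and TPM per gene. Strand settings, and what separates the label sets, are not given in the sources used here. The ChIP-seq files were not used here.

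CPM were computed over the rows of chromosomes 1 to 5 (31742 of 32865). TPM were used as deposited, so values from them, limma included, still carry the chloroplast share of each library. They were rescaled over the same rows only when the rule was tried on TPM. Expected counts were rounded for edgeR (4.0.16, R 4.3.3): filterByExpr, TMM, glmQLFit and glmQLFTest, two-sided, Benjamini-Hochberg FDR under 0.01 and 1.5-fold, the thresholds of the study. *glk* was compared with WT and *Ateaf1-1* in 1 fit of 13 libraries (20733 genes), and first-set *Atepl1-2* with WT in a fit of 6 (18840 genes). Replicates were separate extractions of pooled plants. The scripts were tested on simulated data. DESeq2 (1.42.0), limma (3.58.1) on log2(TPM + 1), other scalings, no filter, a looser FDR, a term for label set and omission of each replicate were tried.

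Promoters came from RefSeq TAIR10.1, which matched all 57 members by locus. The text names the 15 lowest ratios, the 10 highest WT CPM, the 3 genes on either side of the limit, mutated genes, up to 10 members passing in the first set, neighbours and members of families with 3 or more. Others were named after their values were seen, to illustrate a role. The members, lists and tests were chosen with earlier results of these data known.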

Additional observations from a re-analysis of the deposited data

Results flagged for a closer look

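In 5 of the 57 members, 1 of the 4 WT libraries was far from the other 3 (Dixon's gap over range above the 95% limit for 4 samples), where chance alone would flag about 1 group in 20. EXL2 was at 66.2 CPM in WT replicate 4, below the others (gap 0.895 of the range). WT replicate 7 was above the others for RSH2 (271 CPM, 0.875), RABH1c (13.9 CPM, 0.833), SYP121 (100.5 CPM, 0.839) and AT2G39360 (45.5 CPM, 0.867).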

How the results depend on the processing

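The number of genes that met the rule was 104 with TMM-scaled CPM, 26 with a window of 0.3 around WT, 110 with a limit of -1 and 24 with first-set *Atepl1-2* in place of the second set. It was 45 to 68 when 1 replicate was left out. The cause of the changes with scaling was not tested. The 1544 genes called lower in *glk* against WT became 2491 with DESeq2, 515 with limma on log2(TPM + 1), 1018 with a term for label set and 2630 at an FDR under 0.05, and 723 to 2433 when 1 replicate was left out, the highest without WT replicate 4. The 867 genes called higher became 406 with the label set term, 1879 at the looser FDR and 368 to 1741 with 1 replicate left out. The 57 members called lower became 43 with limma, 41 with the label set term and 43 to 57 with 1 replicate left out. The 31 TIR-domain genes called lower became 12 with limma, 22 with the label set term and 23 to 33 with 1 replicate left out. In first-set *Atepl1-2*, the 11 members that rose became 17 with DESeq2, 39 with limma, 21 at the looser FDR and 4 to 19 with 1 replicate left out. The 4 that fell became 2 with limma. The 4392 genes of all that rose there became 6664 with limma.

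For *glk* against *Ateaf1-1*, a fit of these 6 libraries with the replicate number as a block called 52 members and 2367 genes lower, beside 54 and 2780 in the same fit without the block. The deviations of same-numbered libraries from their group means had correlations of 0.01, 0.08 and -0.05. With 3 libraries a group, these values cannot decide whether the numbers pair the samples. WT and *glk* share no replicate number. Depth limits the lowest values, since 2 or 3 members had under 10 counts in each *glk* library.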
